A study of Homo sapiens with 6 samples.

Results

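The p probes are oligonucleotides on a combined lncRNA and mRNA microarray whose identifier is the letter p followed by a number and nothing else. There were 30464 of them among the 75149 probes for RNAs on the array, or 40.5%. A further 7677 probes carry the same kind of identifier with the suffix _v4. They were kept apart from the p probes and are given beside them where they differ. The largest other class, the 34235 probes whose identifiers begin with A_, are Agilent catalogue probes and served as the comparison class. The remaining 2773 probes carry identifiers beginning with RNA. The p numbers ran from 1 to 33950, and 89.7% of the numbers in that range were in use.

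The arrays were hybridised with total RNA of KYSE30, an established cell line of esophageal squamous cell carcinoma. Cells stably overexpressing the lncRNA *Epist* from a lentiviral vector, which also carries GFP and puromycin resistance, were compared with cells carrying the control vector. There were 3 control and 3 *Epist* samples, described as biological replicates. The same-numbered control and *Epist* samples shared an array, so 3 arrays were scanned in total, all from 1 slide. On each array Cy3 marked the control RNA and Cy5 the *Epist* RNA, so the dye and the group cannot be told apart in any comparison between them.

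Long noncoding RNAs are transcripts without a long open reading frame. Many of them are retained in the nucleus, and as a class they are known for lower and more cell-type-restricted expression than messenger RNAs. On an oligonucleotide array each probe reports the fluorescence of whatever labelled cDNA hybridises to it, so the brightness of 1 probe does not give the amount of its transcript relative to that of another probe. The tables used here, among them a probe map of the study held only in part, do not pair a p identifier with a transcript, a genome position or a sequence, so the lncRNA label of the class, markers of the cell type and the probe for *Epist* itself could not be checked on the p probes. The class is therefore described by its measurements, with no probe sequence printed.

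The p probes occupied 79061 spots, 44.9% of all spots for RNAs. Every A_ probe was printed at 2 spots. Of the p probes, 12331 were printed at 2 spots and 18133 at 3. No p spot was saturated in any sample. Between 1.29% and 1.45% of p spots per sample carried an outlier flag and were left out, against 0.0131% to 0.0307% of A_ spots. The flag for a spot that departs from its replicate spots occurred on 1.85% to 2.08% of the spots of 3-spot p probes and on 0% of the spots of 2-spot p and A_ probes. For 39 p probes no spot was left in at least 1 sample, and these carried no signal value.

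A minority of the p probes were detected in the control cells. A probe was counted as detected in a sample when at least 0.5 of its spots were well above background by the scanner software's own test. In the control samples 44.2%, 44.8% and 45.1% of the p probes were detected. In the *Epist* samples the shares were 56.1%, 58.9% and 60.1%. All 3 *Epist* samples lay above all 3 controls. Among A_ probes the shares were 71.9%, 71.8% and 72.1% in the controls and 78.8%, 80.4% and 81.2% in the *Epist* samples. The mean share over the 3 samples was thus 44.7% ± 0.476 (SD) for p probes and 72% ± 0.14 (SD) for A_ probes in the controls. In the *Epist* samples it was 58.4% ± 2.05 (SD) and 80.1% ± 1.22 (SD). The _v4 probes lay between the other classes, at 56.1% to 56.9% of probes in the controls and 67.7% to 71.7% in the *Epist* samples.

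The higher detection in the *Epist* samples went with a lower background in the Cy5 channel. The 600 negative control spots of an array had median processed signals of 8.23, 7.83 and 7.74 units in the Cy3 channel, which held the control RNA. In the Cy5 channel of the same arrays, which held the *Epist* RNA, they were 4.29, 3.62 and 3.21 units. The dimmest p probe that was well above background had a log2 processed signal of 4.09 to 4.18 in the control samples and of 2.81 to 3.2 in the *Epist* samples. The part of the channel background in the difference in detection was not tested.

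Detection sorted the p probes into 2 large sets. In every one of the 6 samples 12420 p probes, or 40.8%, were well above background, against 68.5% of A_ probes and 55.5% of all probes. In no sample were 10929 p probes, or 35.9%, against 15.4% of A_ probes and 24.8% of all probes. On all 3 *Epist* arrays but fewer than 3 control arrays were 4043 p probes, or 13.3%, against 8.44% of A_ probes and 11% of all probes. Of these, 2088, or 6.85% of p probes, were well above background in no control sample, against 3.48% of A_ probes and 5.3% of all probes. The opposite pattern, all 3 control arrays but fewer than 3 *Epist* arrays, was found for 3 p probes and 6 A_ probes.

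The p probes were dimmer than the A_ probes in every sample. On the log2 scale of the processed signal, the median p probe stood at 4.71, 4.71 and 4.68 in the controls and at 4.82, 4.82 and 4.8 in the *Epist* samples. The median A_ probe stood at 7.42, 7.37 and 7.41 in the controls and at 7.43, 7.38 and 7.4 in the *Epist* samples. The lower quartile of p probes lay near the floor of each channel, at 3.02 to 3.1 in the controls and 2.34 to 2.47 in the *Epist* samples. The order of the probes below it may carry no information, which was not tested. After quantile normalization over the 6 samples, which gives every sample the same distribution over all probes, the p probes had a median of their mean log2 signals of 4.71, with quartiles of 2.84 and 6.97. The same median was 5.8 for _v4 probes, 7.41 for A_ probes and 6.07 for all probes.

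The difference in level between the classes was smaller among detected probes. Among probes well above background in every sample, the median mean log2 signal was 7.47 for p probes and 8.77 for A_ probes. A mean log2 signal of at least 10 was reached by 1662 p probes, or 5.46%, and by 20.9% of A_ probes. The top of the distribution nevertheless held p probes. Of the 100 brightest probes for RNAs 20 were p probes, of the 1000 brightest 148 were. The brightest p probe in each sample had a normalized log2 signal of 16.77 to 16.97.

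Replicate spread followed the signal level, and at a given level it was close between the classes. Of the p probes, 16460 were tested, namely those detected on all 3 arrays of either group that had a value in every sample. Their median pooled SD over the 3 replicates of a group was 0.167 log2 units, against 0.141 for the 26352 A_ probes tested and 0.15 for all 50004 probes tested. At a mean log2 signal of 4 to 6 the median SD was 0.246 for 5499 p probes and 0.261 for 4320 A_ probes. At 6 to 8 it was 0.157 for p probes and 0.155 for A_ probes, and at 8 to 10 it was 0.125 and 0.124. At 10 to 12 it was 0.112 for 1222 p probes and 0.113 for 5088 A_ probes. Tested p probes fell into the dim bands more often than tested A_ probes, as these counts show.

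The spread between the groups' own replicates also depended on the level. For p probes of mean log2 signal 4 to 6 the median SD was 0.255 over the controls and 0.197 over the *Epist* samples. At 8 to 10 the order was turned, with 0.108 over the controls and 0.128 over the *Epist* samples. The A_ probes showed the same pair of orders, with 0.273 and 0.204 at 4 to 6 and 0.108 and 0.123 at 8 to 10. An additional spot went with little change in the spread between samples. The median pooled SD was 0.172 for 2-spot and 0.164 for 3-spot p probes tested. Between the 2 spots of a 2-spot p probe on the same array, the median SD was 0.1 to 0.119 log2 units over the 6 samples.

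Most tested p probes differed little between *Epist* and control cells. The samples are bulk RNA, so a lower signal from fewer expressing cells and from less RNA per cell cannot be told apart. The median log2 fold change of the 16460 tested p probes was 0.042, beside 0.013 for A_ probes and 0.027 for all probes tested. It was 0.034, 0.032 and 0.043 on the 3 arrays taken singly. Within 0.5 of no change on the log2 scale lay 93.3% of tested p probes and 93.3% of tested A_ probes. On all 3 arrays 30.9% of tested p probes were higher in *Epist* cells and 21.3% lower, against 29.2% and 28% of A_ probes. Among p probes well above background in every sample, the median was 0.023, and it was 0.127 among those that met the criterion only through the *Epist* arrays. The latter 4037 probes were chosen by a higher reading in the *Epist* channel. The median over all p probes with a signal, tested or not, was -0.002.

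Of the tested p probes, 226 (1.37%) were higher and 342 (2.08%) lower in *Epist* cells at an adjusted p under 0.05 in limma. The background over all 50004 probes tested was 1.81% higher and 2.83% lower, and the A_ probes stood at 2.27% and 3.64%. Over all bands of signal together, the p probes were thus called in both directions at a rate below the background. Tested p probes were dimmer, and within single bands, given below, the share higher lay above the background in some and below it in others. At 4 to 6 the shares were 0.436% higher and 0.746% lower, against 0.395% and 0.757%. The part of the signal level in the rate was not tested. With the array as a block, which compares the 2 samples of each array directly, 1423 p probes (8.65%) were higher and 1362 (8.27%) lower, against backgrounds of 9.82% and 10.7%. The block kept all 568 of the p probes called without it, within a total of 2785. Without the block, 60.2% of the called p probes were lower, and with it 48.9%. When 1 array was left out and no block was used, at most 2 p probes were called in either direction, with each of the 3 arrays in turn. The calls over all 50004 probes then fell to 2 or 3 higher and 1 to 12 lower. With the block and 1 array left out, 686 to 1503 p probes (4.17% to 9.13%) were higher and 766 to 1421 (4.65% to 8.63%) lower. The backgrounds were 4.74% to 10.4% and 5.88% to 11.3%.

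The share of p probes called rose with the signal from 4 to 6 up to 8 to 10, in both directions, with and without the block. The share of higher probes rose again at 10 to 12 and fell at 12 to 14. With the array as a block, the share of lower probes rose from each of these bands to the next, up to 12 to 14. At a mean log2 signal of 4 to 6, 24 (0.436%) of 5499 p probes were higher and 41 (0.746%) lower, against backgrounds of 0.395% and 0.757% over all probes of that band. At 8 to 10, 79 (2.41%) of 3273 were higher and 112 (3.42%) lower, against 2.46% and 3.76%. At 10 to 12, 50 (4.09%) of 1222 were higher and 39 (3.19%) lower, against 3.19% and 4.74%. With the array as a block the shares of p probes were 4.11% higher and 3.36% lower at 4 to 6, against 4.38% and 3.77%. The blocked shares were 13.2% and 12.1% at 8 to 10, against 12.5% and 13.9%, and 16% and 13.2% at 10 to 12, against 14.1% and 15.7%. Without the block, 1.03% were higher and 1.96% lower at 6 to 8, against 1.08% and 2.22%. At 12 to 14 the shares were 2.08% and 4.46%, against 4.03% and 5.19%. With the block they were 8.56% and 8.76% at 6 to 8, against 8.45% and 9.7%. The blocked shares at 12 to 14 were 10.7% and 17.9%, against 15% and 16.7%. Of the 100 p probes tested below 4, 2 were higher and 0 lower without the block, and 19 and 0 with it. Over all 274 probes of that band the counts were 8 and 0, and 45 and 0 with the block. These dim p probes met the detection criterion only through the *Epist* arrays, so counts alone are given. The 226 higher p probes had a median log2 fold change of 0.54 and a median mean log2 signal of 8.61. The 342 lower p probes had a median log2 fold change of -0.57 and a median mean log2 signal of 8.15. All 568 moved the same way on all 3 arrays, which the call itself makes likely. Among the 12420 p probes well above background in every sample, 199 (1.6%) were higher and 335 (2.7%) lower. The background among all probes so detected was 2.05% higher and 3.36% lower. With the array as a block 1203 (9.69%) of these p probes were higher and 1319 (10.6%) lower, against backgrounds of 10.6% and 12.6%.

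Changes of at least 2-fold were few. At an adjusted p under 0.05 in limma, 17 p probes (0.103%) were at least 2-fold higher and 24 (0.146%) at least 2-fold lower in *Epist* cells, against backgrounds of 0.086% and 0.196%. With the array as a block, 45 (0.273%) were higher and 27 (0.164%) lower, against backgrounds of 0.236% and 0.218%. Of the 41 probes without the block 58.5% were lower, and with scaling to the 75th percentile in place of quantile normalization 41.7% of 48 were. The 17 higher probes had a median mean log2 signal of 5.2. Of these, 12 missed detection on at least 1 control array, and 11 were detected on none, so their fold changes are set against readings near the floor of the Cy3 channel. The 24 lower probes had a median mean log2 signal of 5.86, and 23 of them were well above background on every *Epist* array.

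Among p probes well above background in every sample, 5 (0.0403%) were at least 2-fold higher and 22 (0.177%) at least 2-fold lower, against backgrounds of 0.0335% and 0.22%. With the array as a block the counts were 5 and 23 (0.185%), against backgrounds of 0.0335% and 0.232%. Among the 4037 that met the criterion only on the *Epist* arrays, 12 were at least 2-fold higher and 1 at least 2-fold lower. With the array as a block the counts were 40 and 3. Over all 8264 probes of this kind they were 29 and 3, and 104 and 8 with the block. These probes could meet it only through the group in which they were high, so these are given as counts alone. The *t* test named in the study's methods, at an unadjusted p under 0.05 and 2-fold, gave 37 p probes higher and 26 lower, against backgrounds of 0.196% and 0.21%. All 41 probes above were among these 63. After Benjamini-Hochberg adjustment the same *t* test left 16 p probes (0.0972%) higher and 18 (0.109%) lower, whatever the size of the change, against backgrounds of 0.114% and 0.17%.

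The probe with the largest increase was p29407, whose transcript is not named in the tables used here. Its normalized log2 signals were 5.06, 4.47 and 4.53 in the controls and 10.96, 10.5 and 10.66 in the *Epist* samples. All 3 *Epist* values lay far above all 3 control values, and the processed signals behind them were 2040, 1390 and 1640 units against 32.9, 21 and 21.7. The probe was well above background on no control array, so the log2 fold change of 6.02 ± 0.18 (SE), with an adjusted p of 1.02e-05 in limma, is taken against a floor. It entered the test only through the *Epist* arrays, and with no filter its adjusted p in limma was 0.006. After normexp, loess and Aquantile normalization the mean over the *Epist* arrays was 17.8-fold the mean reading of the undetected control spots. That reading stood in for the undetected level, and the value leaves out the replicate error. Its 3 spots, read on each of the 3 arrays, gave log2 ratios of 5.44 to 6.52, so no single spot carried the difference. The exact two-sided permutation test over 3 against 3 samples gave 0.1 for p29407 and for each probe below. This is the smallest p possible when the 6 samples are exchanged freely, which leaves out their pairing on arrays. These probes were picked by the size and direction of their change, so the value adds no support.

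The probe ranked second by fitted increase lay near the floor. Probe p6398 had normalized log2 signals of 2.45, 3.45 and 2.49 in the controls and 4.36, 4.53 and 4.46 in the *Epist* samples. The groups did not overlap, but the probe was well above background on no control array, and the processed signals were 8.25, 11.3 and 7.86 units against 21.4, 24.4 and 23. The fitted log2 fold change was 1.65 ± 0.35 (SE), with an adjusted p of 0.0393 in limma and of 0.0105 with the array as a block. The probe entered the test only through the *Epist* arrays, and with no filter the adjusted p in limma was 0.0637 without the block. After normexp, loess and Aquantile normalization the log2 fold change was 0.34. In the unscaled scanner readings it was 0.23, below the median of 0.578 over all probes tested. No lower bound on the fold is given for this probe or for p29407. Its place among the 16460 tested p probes fell from 2 to 7 without further normalization or with scaling to the 75th percentile, and to 377 after normexp, loess and Aquantile, while p29407 ranked 1 under each. The adjusted p in limma was 0.0561 with outlier spots kept and 0.139 to 0.263 with 1 array left out and no block, while with the block it was 0.00728 to 0.0431.

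Probe p22815 showed the largest decrease after quantile normalization. Its normalized log2 signals were 6.84, 7.04 and 6.85 in the controls and 5.25, 4.47 and 4.75 in the *Epist* samples. It was well above background in all 6 samples, and the groups did not overlap. The log2 fold change was -2.08 ± 0.2 (SE), with an adjusted p of 0.00469 in limma and of 0.000192 with the array as a block. The 3 arrays gave -1.59, -2.57 and -2.09. After normexp, loess and Aquantile normalization, which adds an offset to every signal, the log2 fold change was -1.02. With 1 array left out and no block, the log2 fold change was -2.33 to -1.84 and the adjusted p in limma was 0.0534 to 0.13, while with the block it was 1.19e-07 to 0.000226.

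Probe p25720 followed under the same scaling, with normalized log2 signals of 6.86, 6.54 and 6.95 in the controls and 5.23, 4.43 and 5.08 in the *Epist* samples. It too was well above background in all 6 samples, with no overlap between the groups. The log2 fold change was -1.87 ± 0.22 (SE), with an adjusted p of 0.00818 in limma and of 7.97e-05 with the array as a block. It was -0.93 after normexp, loess and Aquantile normalization, where p22815 ranked 3 and p25720 ranked 6 among decreases of tested p probes. With 1 array left out and no block, its log2 fold change was -2 to -1.75 and the adjusted p in limma was 0.0806 to 0.15, while with the block it was 7.31e-08 to 0.000318. The other 15 probes at least 2-fold higher had log2 fold changes of 1.01 to 1.57, and the other 22 at least 2-fold lower had -1 to -1.59.

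Among the brightest p probes more were lower than higher in *Epist* cells. Of the 104 p probes whose mean log2 signal reached 14, 19 (18.3%) were lower and 3 (2.88%) higher in limma. The background among the 646 probes of that brightness was 8.51% lower and 8.98% higher. Blocked by array, 41 (39.4%) were lower and 7 (6.73%) higher, against backgrounds of 22.9% and 20.7%. Their median log2 fold change was -0.13, and single probes ranged from -0.67 to 0.7. On all 3 arrays 50% of them were lower and 19.2% higher, against 32.8% and 38.5% of all probes of that brightness. The 104 probes fell into 88 groups of numbers no more than 3 apart, and the 19 lower ones into 19, so they were not 1 stretch of neighbouring identifiers. The 38 RNA probes of that brightness had a median log2 fold change of -0.127, with 36.8% lower and 13.2% higher on all 3 arrays. Of these 38, limma called 0 in either direction without the block, where 7 had an unadjusted p under 0.05, and 9 (23.7%) lower with it.

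The size of this shift in the brightest p probes depended on the scaling. Without further normalization and with scaling to the 75th percentile, their median log2 fold change was -0.176 in both cases. With normexp and quantile it was -0.137, with 66 lower and 38 higher. With normexp, loess and Aquantile it was -0.04, with 57 lower and 47 higher. The 372 A_ probes of the same brightness had a median of 0.012 after quantile normalization, of -0.033 without further normalization and of 0.087 after normexp, loess and Aquantile. In the unscaled scanner readings all 104 p probes and all 372 A_ probes were brighter in the Cy5 channel. The part of the dye in the values of the brightest probes was not tested.

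The order of the p numbers, which played no part in choosing the probes beyond their format, went with the measurements. Over 29967 pairs of p probes whose numbers differ by 1, Spearman's rho of the mean log2 signals was 0.26. It was 0.18 at a difference of 2, 0.14 at 3, 0.07 at 10 and 0.02 at 1000. The pairs share arrays and samples. When a p probe was well above background in every sample, the probe with the next number was so in 53% of 12174 pairs, and when it was not, in 32.1% of 17871 pairs. Neighbouring numbers did not sit near each other on the array. The median distance between nearest spots, in rows and columns of the array, was 86.3 for numbers that differ by 1 and 87.7 for numbers that differ by 1000.

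The change between the groups followed the numbers as well. Over 10134 pairs of tested p probes with successive numbers, Spearman's rho of the log2 fold changes was 0.19, and over the 1502 pairs in which both had a mean log2 signal of at least 8 it was 0.34. At a difference of 1000 these values were 0.02 and -0.03. Where a p probe was higher in limma, the probe with the next number was higher too in 15 of 141 pairs, or 10.6%, against 1.37% where the first was not. Where a p probe was lower, the next was lower in 32 of 237 pairs, or 13.5%, against 2.08%. When blocked by array, these shares were 17.5% of 845 pairs against 7.7% for higher probes, and 23.4% of 940 pairs against 8.08% for lower probes. Whether p probes with neighbouring numbers measure 1 transcript or several was not tested.

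Of the 24 neighbours within 3 numbers of the 4 named probes, 11 were too dim to be tested, and the 13 tested had adjusted p of at least 0.175 in limma without the block. The probes with numbers 1 below and 1 above p29407 were well above background in no sample and had log2 fold changes of 0.5 and -0.18. Those on either side of p6398 were likewise undetected in every sample, at -0.06 and 0.33. The probe 1 above p22815 was tested and had a log2 fold change of -0.02, with an adjusted p of 0.976 in limma. The probe 1 above p25720 had -0.13, with an adjusted p of 0.775. Under the array block, 1 such neighbour was called, the probe 2 above p22815, with a log2 fold change of 0.47 and an adjusted p of 0.0461.

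Along the whole range of numbers, detection was uneven. In blocks of 5000 successive numbers, 34.4% to 49.4% of p probes were well above background in every sample, with the lowest shares among numbers 10001 to 25000. The 914 probes numbered 30001 to 33950 stood apart at 68.5%, near the share of A_ probes, with a median mean log2 signal of 7.51. In this last block 9 probes (1.27%) were higher and 28 (3.95%) lower among 709 tested, while the other blocks ranged from 0.874% to 1.81% higher and from 1.59% to 2.36% lower. Blocked by array, 9.45% of the tested probes of this last block were higher and 13.7% lower, against 7.42% to 10% and 6.59% to 8.57% elsewhere. The background over all probes tested was 1.81% higher and 2.83% lower without the block, and 9.82% and 10.7% with it. The A_ probes stood at 2.27% and 3.64% without the block and at 11% and 13.2% with it.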

How the data were processed

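RNA of 3 control and 3 *Epist* samples was hybridised to 3 two-colour Agilent arrays of a design built on hg19. The authors deposited, per spot, scanner intensity values (processed, median and local background signals) and flags from Feature Extraction 11.5.1.1, per the file headers. The processed intensity is background-subtracted and dye-normalized within the array. The authors also deposited a series table of log2 values, 1 per probe and sample, quantile normalized with limma. The signals of p probes computed here differed from that table by at most 0.0238 log2 units.

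Control and outlier spots were left out, the log2 processed signals of a probe's spots were averaged, and the 6 channels were quantile normalized. Probes detected (well above background) on all 3 arrays of either group were tested with limma 3.58.1 in R 4.3.3 (lmFit, eBayes with a trend), with Benjamini-Hochberg adjustment over all 50004. The same files serve both samples of an array. Deviations from the group means correlated at 0.58, 0.69 and 0.63 over p probes within arrays, so replicate numbers pair the samples. The main fit, to which counts and adjusted p refer unless the block is named, left out this pairing. The array was therefore used as a block in a further fit. Where the block was run and changed a call or a count by over 1.5 times, its value is given. On simulated data limma recovered 81% of 200 probes changed by 1.5 log2 units, with 0 false calls. With the block it recovered 89.5%, with 3 false calls. The called p probes had smaller median log2 fold changes, 0.54 and -0.57, and the simulation held no dye effect. It therefore does not give the recovery or the error rate of the calls reported here. The number of arrays limits the precision. Named probes are the 2 largest increases and 2 largest decreases past the threshold with 1 direction on all 3 arrays. The p probes and all lists were chosen with earlier results of these data known. Alternatives were other normalizations, filters and tests, the block, and leaving out each array.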

Additional observations from a re-analysis of the deposited data

How the results depend on the processing

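The 226 higher, 342 lower, 17 at least 2-fold higher and 24 at least 2-fold lower p probes are the counts compared below, and over the 18 alternatives that kept all arrays or used the block, the share of p probes called was 0.686 to 0.918 times that of all probes tested for higher, 0.482 to 0.853 for lower, 0.911 to 1.44 for at least 2-fold higher and 0.314 to 0.826 for at least 2-fold lower; counts not given lay within 1.5 times of these. The replicate block, with the array as the pairing, gave 1423 higher, 1362 lower and 45 at least 2-fold higher. Normexp with loess and Aquantile, and normexp with quantile, each left 3 at least 2-fold higher and 3 lower, the cause of which was not tested, and the former with the replicate block gave 1421 higher, 1337 lower, and 3 and 3 at 2-fold. Processed signals without further normalization gave 150 higher and 213 lower, and scaling to the 75th percentile gave 28 at least 2-fold higher. With no filter 144 were higher, 127 lower and 28 at least 2-fold higher. Testing only probes detected in both groups left 5 at least 2-fold higher, and with the replicate block gave 1280 higher, 1394 lower and 5 at least 2-fold higher. Without a trend in eBayes 93 were higher and 129 lower. Unadjusted, the methods' *t* test gave 1406 higher, 1272 lower and 37 at least 2-fold higher, and after Benjamini-Hochberg 16, 18, 2 and 3.

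With 1 array left out, the fit without a block called 1 to 2 higher and 0 to 2 lower, and 1 to 2 and 0 to 2 at 2-fold. In limma 0 were lower without array 1 and without array 2, where 1026 and 1103 were lower at an unadjusted p under 0.05, and with the replicate block in the same samples 911 and 1421 were lower. The block gave 807, 1503 and 686 higher, 911, 1421 and 766 lower, 43, 56 and 37 at least 2-fold higher and 37, 31 and 29 at least 2-fold lower without array 1, 2 and 3. A minimum mean log2 signal of 6, chosen after seeing the data, left 7 and 9 at 2-fold. Counting _v4 probes as well, also chosen then, gave 294, 445, 19 and 31.

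Requiring every spot to be well above background lowered detection to 40.1% in controls and 53.7% in *Epist* samples. The median replicate SD was 0.105 with loess and 0.146 for probes detected in both groups. The median log2 fold change was 0.061 without further normalization and with the 75th percentile, 0.023 with loess and for probes detected in both groups, and -0.002 with no filter, and 0.037 to 0.042 with 1 array left out. No named probe changed direction. Probe p29407 passed the threshold under every alternative that tested it. Probe p6398 missed it with no filter, with outlier spots kept, with the adjusted *t* test and with any array left out, and p22815 and p25720 with the adjusted *t* test and with any array left out, in each case without the block. Signal over background limits what can be said of the p probes, since 35.9% were well above background in no sample.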

Other observations

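The _v4 probes were brighter and more often detected than the p probes as a whole, with a median mean log2 signal of 5.8 against 4.71. Of the 132 _v4 probes whose mean log2 signal reached 14, 16 (12.1%) were higher and 5 (3.79%) lower in *Epist* cells in limma. The background among all probes of that brightness was 8.98% and 8.51%. With the array as a block 48 (36.4%) were higher and 11 (8.33%) lower, against backgrounds of 20.7% and 22.9%. The median log2 fold change of the 132 was 0.158. The 104 p probes of that brightness had a median of -0.13. The medians were 0.168 and -0.176 without further normalization and 0.354 and -0.04 after normexp, loess and Aquantile. The difference between the 2 classes was not tested. The _v4 probes also reached that brightness more often, at 1.72% of probes against 0.342% of p probes and 1.09% of A_ probes, and they made up 29 of the 100 brightest probes for RNAs.

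The numbers of the _v4 probes ran from 33951 to 44620, directly after those of the p probes, and 71.9% of them were in use. The last p numbers and the _v4 probes were alike in their detection in every sample only in part, at 68.5% and 52.9%, beside 40.8% for the p probes as a whole.

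Without the block, the 2-spot and 3-spot p probes were called at nearly the same rates. Of the 2-spot p probes tested 1.38% were higher and 2.1% lower, and of the 3-spot ones 1.37% and 2.06%. Blocked by array, the shares were 8.98% and 8.88% for 2-spot probes, and 8.4% and 7.84% for 3-spot ones. The difference was not tested. They differed slightly in detection in every sample, at 43.1% and 39.2%.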
